A study of Bos taurus with 8 samples.

Results

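The miRNAs described here are the members of the miR-23, miR-24 and miR-27 clusters in bovine blood. They were selected by name, as all rows called bta-miR-23, bta-miR-24 or bta-miR-27 with or without a letter a or b and an arm suffix. This gave 8 of the 534 miRNAs listed. The set was proposed with the fold changes between sera and exosomes of the same libraries known, among which miR-24-3p and miR-23b-3p stood out. Differences between sera and exosomes are therefore given as a description, with no p-value. Tests are given only for ratios between members within a library, which do not use that comparison.

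Small RNA was sequenced from the blood serum of 4 healthy lactating Holstein cows and from the exosomes of that serum. Each cow gave 1 serum library and 1 exosome library. The animals received no treatment and were not pooled. RNA of serum was extracted with a Norgen kit, and exosomes were isolated and extracted with Invitrogen kits, so sample type and extraction cannot be told apart. Whole serum also still holds the exosomes. Each value is in RPM, the reads of a miRNA scaled to a fixed total of miRNA reads in each library, so an increase of an abundant miRNA lowers the RPM of all others. Mature miRNAs are sequenced whole and are close in length, so RPM were compared between miRNAs without a length correction. Whether different miRNAs are turned into reads equally well was not tested. Ratios between miRNAs are therefore ratios of reads, and may not be those of molecules. Fewer vesicles or cells releasing a miRNA and less of it in each cannot be told apart in such samples.

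The sera libraries held 264769 to 590162 miRNA reads and the exosome libraries 60682 to 157710. In sera 1 read equaled 1.69 to 3.78 RPM, and in exosomes 6.34 to 16.5 RPM. The libraries of cow 1 stood apart in muscle miRNAs (6 listed, 1 of them at 0 everywhere), which held 2.31% of its miRNA reads in serum and 2.63% in exosomes, against at most 0.0244% and 0.0342% in the other cows. Erythroid miRNAs (7 of 7 listed with reads) made up 24.3% to 34.7% of serum reads and 28.1% to 51.0% of exosome reads, and were highest in cow 2 in both sample types.

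In mammals these miRNAs are made from 2 sets of genes, each of which is transcribed as one precursor and cut into a miR-23, a miR-27 and a miR-24 hairpin. In the RefSeq annotation of the cow (ARS-UCD2.0) the a cluster reads MIR23A, MIR27A, MIR24-2 along the chromosome. The b cluster reads MIR23B, MIR27B, MIR24-1 on another chromosome, within AOPEP, which encodes an aminopeptidase. MiR-23a and miR-23b share their seed (the bases that select targets) and are near-identical, as are miR-27a and miR-27b. The main strand of both miR-24 hairpins is the same, so miR-24-3p cannot be assigned to a cluster. As background, the clusters are known from endothelial cells and angiogenesis, from blood cell formation, and from muscle and fat cells, where miR-27 restrains adipocyte differentiation. MiR-23a is also used as a reference in tests of hemolysis in serum and plasma, against the red cell miRNA miR-451. Since reads that match both near-identical forms may be divided between them, and how this was done is not stated in the sources used here, the ratios of a to b forms below are uncertain to that extent.

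Of the 8 miRNAs, 5 reached 10 reads in each library. These were miR-23a, miR-23b-3p, miR-27a-3p, miR-27b and miR-24-3p, the main strands of the 6 hairpins. The other 3 were at the limit of detection. MiR-23b-5p, the opposite arm of the miR-23b hairpin, had 0 reads in all 8 libraries, which allows up to 1.91 RPM over the pooled sera and 6.68 RPM over the pooled exosomes (3 reads of the pooled total, counting error only). MiR-27a-5p, the opposite arm of miR-27a, had 1 read in the serum and 1 in the exosomes of cow 4. The row named miR-24 without an arm had 4 reads in the serum of cow 2, 1 in that of cow 4, and 0 in all 4 exosome libraries. With so few reads no direction was detectable for these 3 miRNAs.

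Together the 8 members accounted for 6.60% ± 0.765 of miRNA reads in serum and for 4.09% ± 0.846 in exosomes (SD, n = 4 cows). The range was 5.51% to 7.29% in sera and 2.85% to 4.71% in exosomes, so the sample types did not overlap. Most of it was miR-27, whose pair made up 83.9% ± 1.70 of the members' reads in sera and 88.8% ± 1.25 in exosomes (SD, n = 4). In both sample types the order of the mean levels was miR-27b, miR-27a-3p, miR-23a, miR-23b-3p and miR-24-3p.

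MiR-27b, of the b cluster, was the most abundant member and ranked 5 of all miRNAs by mean RPM in sera and 6 in exosomes. In cows 1 to 4 it had 39947, 36221, 42275 and 46242.5 RPM in serum, and 28806, 20701, 30281 and 31729 RPM in the matching exosomes. All sera were above all exosomes, and cow 2 was lowest in both. The means were 41171 ± 4201 and 27879.5 ± 4932 RPM (SD, n = 4), and within cows serum was 1.39 to 1.75 times higher.

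MiR-27a-3p, its a cluster counterpart, had 15682, 10936.0, 14133 and 15819 RPM in sera and 10893, 5115, 7683 and 9873 RPM in exosomes. The serum of cow 2 lay just above the exosomes of cow 1, the closest approach of the sample types among the 5 members. The exact 95% binomial intervals of these 2 libraries, 10670 to 11200 and 10080 to 11750 RPM, overlapped (counting error only). The means were 14143 ± 2270.5 and 8391 ± 2562 RPM (SD, n = 4), and serum was 1.44 to 2.14 times higher within cows.

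MiR-23a, transcribed with miR-27a, had 5962, 4084, 5684 and 5872 RPM in sera and 3395, 1692, 2870.0 and 3177 RPM in exosomes. The sera of cows 1, 3 and 4 were close together, and cow 2 lay below them in both sample types without an overlap of sera and exosomes. The means were 5401 ± 886 and 2783 ± 759 RPM (SD, n = 4), with a ratio of serum to exosomes of 1.76 to 2.41 within cows.

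MiR-23b-3p, transcribed with miR-27b, had 4057, 2681, 3626 and 3891.5 RPM in sera and 1779.8, 756, 1777 and 1928 RPM in exosomes. The exosomes of cow 2 were under the other exosomes by more than the whole range of those. The means were 3564 ± 615 and 1560.1 ± 540.5 RPM (SD, n = 4). The ratio was 2.02 to 3.54 within cows, with the upper end from cow 2.

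MiR-24-3p, shared by both clusters, was the least abundant of the 5 and differed most between the sample types. It had 1527, 1167.5, 2987.5 and 1106 RPM in sera and 280.1, 226, 469 and 336 RPM in exosomes, so that the lowest serum was above the highest exosome library. Its exosome values rested on 17, 29, 48 and 53 reads, with exact 95% binomial intervals of 163 to 449, 151 to 325, 346 to 621 and 252 to 440 RPM (Clopper-Pearson, counting error only). These intervals overlap between neighboring libraries, so the order of the cows in exosomes is not fixed by the depth. The means were 1697 ± 880.2 and 328 ± 104 RPM (SD, n = 4), and serum was 3.29 to 6.38 times higher within cows. Cow 3 was highest in both sample types.

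**Figure D1:**
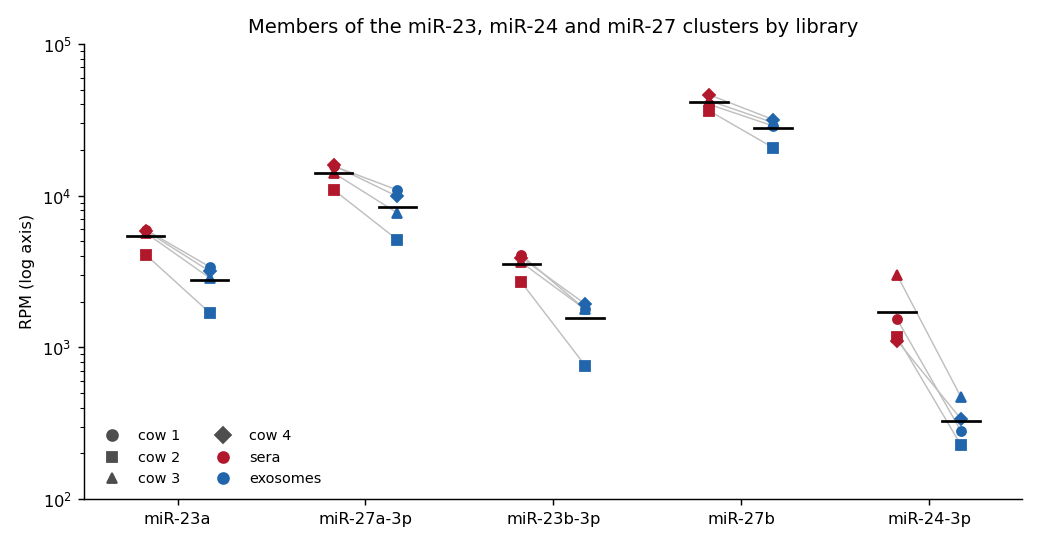
RPM (log axis) of the 5 members that reached 10 reads in each library, in 4 sera (red) and 4 exosome libraries (blue). Symbols mark cows, gray lines join the libraries of a cow and black bars are means. All sera lie above all exosomes for each member, and the drop is steepest for miR-24-3p (mean 1697 to 328 RPM) and shallowest for miR-27b (41171 to 27879.5 RPM).

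All 5 members had no overlap between sera and exosomes and were higher in serum in 4 of 4 cows. For miR-27a-3p the gap between the sample types was within counting error. Of the 128 miRNAs that reached 10 reads in each library, all sera were above all exosomes for 21.9%, and serum was higher in 4 of 4 cows for 51.6%. Of the 365 miRNAs taken as expressed (over 1 RPM in 2 or more cows, in serum or in exosomes), 11.8% had all sera above all exosomes. Differential expression was fitted with limma on log2(RPM + 1) over these 365 miRNAs, with limits of 1 on the log2 fold change (FC, sera minus exosomes) and 0.05 on the FDR. Of the 6 members in the fit, miR-24-3p and miR-23b-3p were called higher in sera, beside 11 of all 365 miRNAs (3.01%). Since this comparison was known when the members were chosen, nothing is read from these shares. The summed RPM of 2 endothelial and of 2 liver miRNAs were also larger in serum than in exosomes in 4 of 4 cows (median log2 FC of 0.76 and 1.11), and their part in the members' values was not tested.

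The log2 FC was 2.30 for miR-24-3p (standard error 0.33), 1.26 for miR-23b-3p (0.28), 0.99 for miR-23a (0.24), 0.80 for miR-27a-3p (0.24) and 0.58 for miR-27b (0.21). This fit had no block for the cow, so its standard errors do not use the pairing of libraries within cows. The median of the 5 was 0.99 and that of the 128 miRNAs was 0.31. Fold change thus ran opposite to level, from the least to the most abundant member. In this order both miR-23 forms lay between miR-24-3p and both miR-27 forms. By size, family did not come before cluster for the a forms. Between sera and exosomes, the log2 ratio of miR-23a to miR-27a-3p, transcribed with it, differed by 0.19, and that to miR-23b-3p by 0.28. The ratio of miR-27a-3p to miR-27b differed by 0.22, and that of miR-23b-3p to miR-27b, transcribed together, by 0.69. Within miR-23 the b form had the larger value, and within miR-27 the a form. The call of miR-23b-3p was lost without the serum of cow 1 or of cow 4 (log2 FC of 1.20 and 1.22) and without the exosomes of cow 2 (0.95). MiR-23a, just under the limit, was called without the serum of cow 2 (1.12) or the exosomes of cow 1, 3 or 4 (1.10, 1.02 and 1.07).

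**Figure D2:**
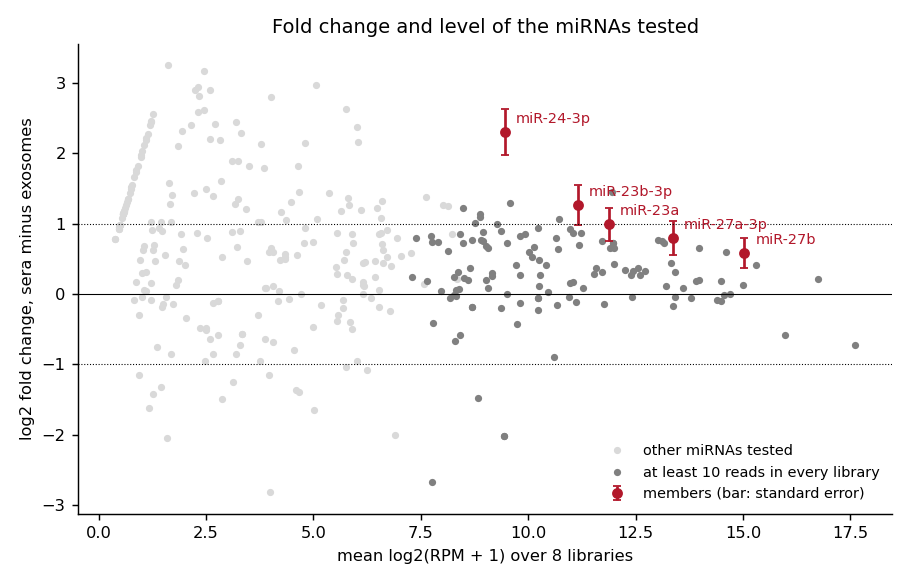
Log2 FC (sera minus exosomes, limma) against mean log2(RPM + 1) over 8 libraries for the 365 miRNAs fitted. Dark gray points reached 10 reads in each library, red points are the members with their standard errors, and dotted lines mark the limits of 1 and -1. The members run from miR-24-3p (2.30) at the lowest level to miR-27b (0.58) at the highest.

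The sizes of these values depended on the scaling. MiR-486 alone took 15.9% of serum reads and 26.8% of exosome reads on average, so other totals were tried. With miR-486 left out of the total, which was added after the values were known, the median of the 128 miRNAs fell from 0.31 to 0.11 and miR-27b from 0.58 to 0.37. With edgeR and TMM on the recovered reads the median was also 0.11, and the values were 2.10 for miR-24-3p, 1.02 for miR-23b-3p, 0.78 for miR-23a, 0.59 for miR-27a-3p and 0.37 for miR-27b. In that fit 6 of the 365 miRNAs were called higher in sera and 8 in exosomes, against 11 and 5 by limma. With the size factors of DESeq2 the median was -0.02, miR-27b was at 0.25, and miR-23b-3p at 0.90 was no longer called. The calls of DESeq2 were 3 in favor of sera and 13 in favor of exosomes. The order of the 5 members was the same in all 21 fits, and all 5 lay above the median of the 128 miRNAs in each of them. Scaling moves all miRNAs by a similar amount, so fits that differ in scaling alone could hardly change this. The fits also share libraries, so nothing more is read from their agreement.

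**Figure D3:**
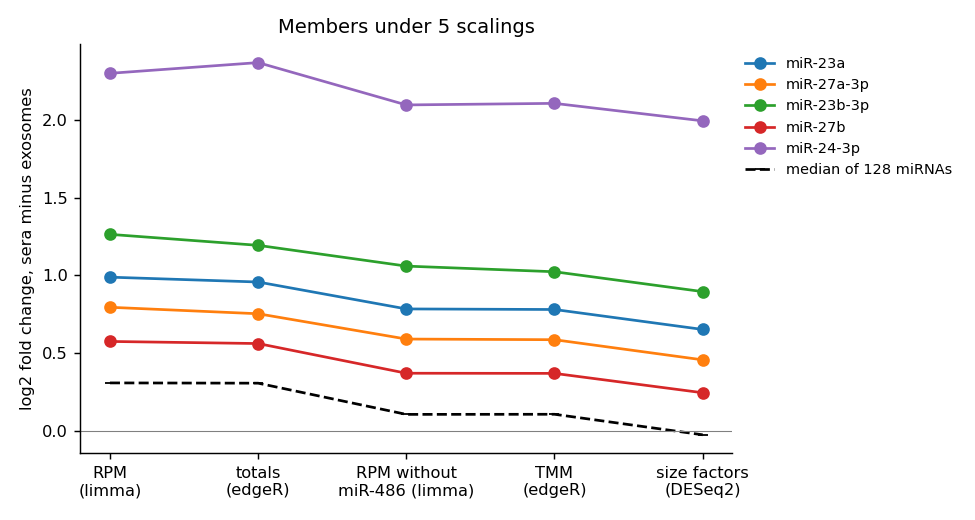
Log2 FC (sera minus exosomes) of the 5 members under 5 scalings, with the median of the 128 well-covered miRNAs as a dashed line. All lines drop by a similar amount from RPM to DESeq2 size factors (miR-27b from 0.58 to 0.25, the median from 0.31 to -0.02), and none of them cross.

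To compare the 2 clusters without any scaling, ratios were taken between members of the same library. MiR-23a exceeded miR-23b-3p in 8 of 8 libraries. In cows 1 to 4 its log2 ratio was 0.56, 0.61, 0.65 and 0.59 in serum, and 0.93, 1.16, 0.69 and 0.72 in the matching exosomes. Averaged over both libraries of a cow it was 0.74 ± 0.10 (SD, n = 4 cows), or 1.67 times as many reads of miR-23a as of miR-23b-3p. This direction held in 4 of 4 cows (exact sign-flip test, two-sided p = 0.125, the smallest that 4 cows allow; adjusted p = 0.125 over 3 ratios). The a form was therefore the larger of the miR-23 pair in all libraries, though the test cannot pass 0.05 in this design.

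For miR-27 the b form was the larger. The log2 ratio of miR-27a-3p to miR-27b was -1.35, -1.73, -1.58 and -1.55 in sera and -1.40, -2.02, -1.98 and -1.68 in exosomes. The mean over cows was -1.66 ± 0.22 (SD, n = 4), or 3.16 times as many reads of miR-27b as of miR-27a-3p. The sign was the same in 8 of 8 libraries (exact sign-flip test over 4 cows, two-sided p = 0.125, adjusted p = 0.125 over 3 ratios). The a-to-b ratio of miR-23 minus that of miR-27 was 2.40 ± 0.27 on the log2 scale (SD, n = 4). Its sign follows from those of the 2 ratios, so it adds no test of its own, although it was counted among the 3 ratios of the adjustment. The miR-23 and miR-27 pairs, which come from the same precursors, thus had a-to-b ratios of opposite sign.

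Within the a cluster, miR-27a-3p was 2.62 times miR-23a in sera and 2.997 times in exosomes (log2 ratio of miR-23a to miR-27a-3p of -1.39 ± 0.05 and -1.58 ± 0.11, SD, n = 4). Within the b cluster, miR-27b was 11.7 times miR-23b-3p in sera and 18.8 times in exosomes (log2 ratio of miR-23b-3p to miR-27b of -3.54 ± 0.19 and -4.23 ± 0.36). The a pair (miR-23a and miR-27a-3p) made up 30.3% ± 2.09 of the reads of both pairs in sera and 27.2% ± 3.55 in exosomes (SD, n = 4). It was higher in serum in 4 of 4 cows, by 1.13 to 5.39 percentage points, while the sample types overlapped.

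The a-to-b ratios differed between the sample types in opposite directions for the 2 families. For miR-23 the log2 ratio was higher in exosomes in 4 of 4 cows, by 0.28 ± 0.23 (SD of the cow differences, n = 4), without an overlap of the sample types. The gap came mostly from cows 1 and 2, whereas in cow 3 it was 0.04 on the log2 scale. For miR-27 the log2 ratio was lower in exosomes in 4 of 4 cows, by 0.22 ± 0.15, and the sample types overlapped. In cow 1 exosomes minus serum was only -0.054, where counting alone would spread this ratio by 0.058 between exosome libraries. Counting alone would spread a log2 ratio of miR-23a to miR-23b-3p by 0.15 between exosome libraries, where the measured SD was 0.22.

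**Figure D4:**
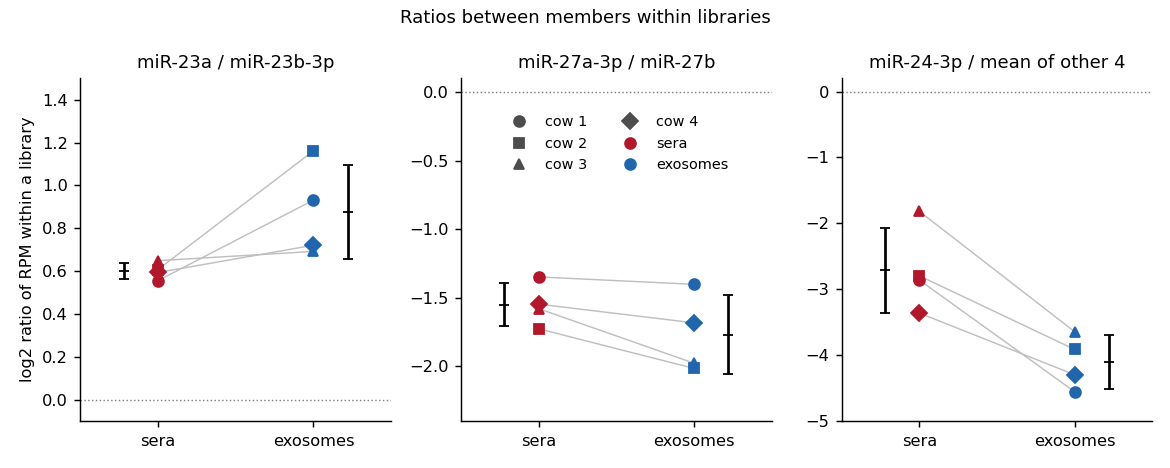
Log2 ratios of RPM within a library for miR-23a to miR-23b-3p, miR-27a-3p to miR-27b, and miR-24-3p to the mean log2 RPM of the other 4 members, in sera (red) and exosomes (blue) of 4 cows. Black bars are means ± SD and the dotted line is a ratio of 1. The miR-23 ratio stays above 0 and the miR-27 ratio below 0 in all 8 libraries, and the miR-24-3p ratio drops from a mean of -2.71 in sera to -4.10 in exosomes.

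The steadiness of these ratios over cows differed between members. Among the 10 pairs of the 5 members in sera, the SD of the log2 ratio over 4 cows was smallest for miR-23a with miR-23b-3p (0.0385), miR-27a-3p with miR-23b-3p (0.0403) and miR-23a with miR-27a-3p (0.0528). For the first and the second this was no more than counting gives (0.0523 and 0.0455), and for the third it was above it (0.0388). Ratios to miR-27b varied more, with SDs from 0.16 to 0.19 in sera against 0.0237 to 0.0424 from counting. Ratios to miR-24-3p varied most, with SDs from 0.62 to 0.67 against 0.0624 to 0.0735 from counting. In these 4 sera, miR-23a, miR-23b-3p and miR-27a-3p thus had nearly fixed proportions from cow to cow, although they come from both clusters. This was less so in the exosomes of the same cows. There the SDs of these pairs, in the same order, were 0.22, 0.29 and 0.11, against 0.15, 0.13 and 0.10 from counting. In exosomes, the SDs of the 4 members other than miR-24-3p ranged from 0.11 to 0.36, where counting gives 0.0578 to 0.15. Exosome ratios to miR-24-3p had SDs from 0.30 to 0.53, where counting gives 0.26 to 0.29.

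MiR-24-3p varied most between the sera. Its log2 ratio to the other 4 members (to the mean of their log2 RPM) was -2.86, -2.80, -1.82 and -3.36 in sera and -4.56, -3.92, -3.65 and -4.30 in exosomes. Cow 3 had the highest ratio in both sample types, though in exosomes it was close to cow 2, and the sample types did not overlap. The mean was -2.71 ± 0.65 in sera and -4.10 ± 0.40 in exosomes (SD, n = 4). This put miR-24-3p 6.54 and 17.2 times below the mean log2 level of the other 4, not below their mean RPM. The sera were higher by 1.40 ± 0.43 (SD of the cow differences), in 4 of 4 cows. Without cow 3 the CV of miR-24-3p in sera was 18.0% in place of 51.9%, and its mean was 1267 ± 228 RPM (SD, n = 3). The other 4 members had CVs of 10.2% to 17.3% in the sera of all 4 cows, and of 12.4% to 21.2% without cow 3. The larger spread of miR-24-3p in RPM between sera thus rested on cow 3. In exosomes the CV of miR-24-3p was 31.8%, within the 17.7% to 34.6% of the other members. Without cow 2 the CVs in exosomes were 26.8% for miR-24-3p and 4.72% to 17.3% for the other 4. How its spread in exosomes compared with theirs thus depended on cow 2.

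The remaining 4 members were lowest in cow 2 in both sample types. As log2(RPM + 1), cow 2 deviated from the mean of its sample type by -0.39 to -0.18 in sera and by -0.95 to -0.41 in exosomes. Cow 2 also had the largest share of erythroid miRNAs, 34.7% in serum and 51.0% in exosomes, and of miR-486, which took 34.9% of its exosome reads. Without both libraries of cow 2, also added after the values were known, the log2 FC (sera minus exosomes) was 2.28 for miR-24-3p, 1.08 for miR-23b-3p, 0.89 for miR-23a, 0.70 for miR-27a-3p and 0.50 for miR-27b. The part of the erythroid share in the members' values was not tested.

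The level of miR-451 relative to miR-23a, the pair used to grade hemolysis by qPCR, was also computed, since miR-451 is abundant in red cells and miR-23a is little affected by their lysis. MiR-451 itself had 20013, 38198.0, 24278 and 26339 RPM in sera and 21407, 35742, 22247 and 28996 RPM in exosomes, with a log2 FC (sera minus exosomes) of 0.00 by limma. Both sample types were highest in cow 2. The log2 ratio of miR-451 to miR-23a was 1.75, 3.23, 2.10 and 2.17 in sera and 2.66, 4.40, 2.95 and 3.19 in exosomes. Exosomes had the higher ratio in 4 of 4 cows, by 0.99 ± 0.14 (SD of the cow differences, n = 4), and the cows had the same order in both sample types. How the difference divides between the 2 miRNAs depended on the scaling. In RPM, miR-451 was level and miR-23a had a log2 FC of 0.99, whereas with TMM miR-451 was at -0.22 and miR-23a at 0.78, and with DESeq2 they were at -0.34 and 0.65. With miR-486 in place of miR-451 the difference was 1.72 ± 0.44, and with miR-16b, another erythroid miRNA, 0.34 ± 0.20, because miR-486 was higher and miR-16b lower in exosomes. No qPCR limit can be applied to ratios of reads.

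**Figure D5:**
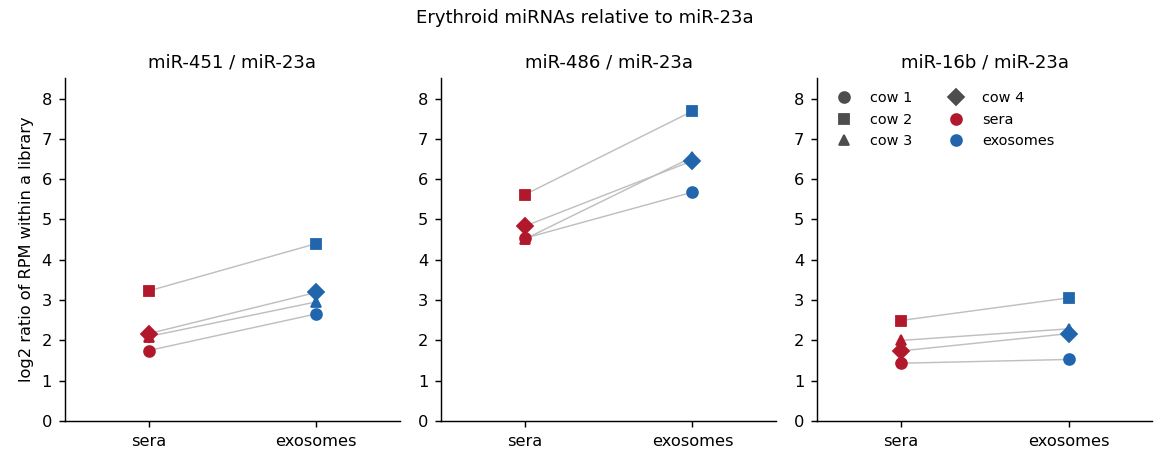
Log2 ratio of RPM of miR-451, miR-486 and miR-16b to miR-23a in sera (red) and exosomes (blue), with gray lines joining the libraries of a cow. Cow 2 is highest in each panel, and the step from sera to exosomes is 0.99 on average for miR-451, 1.72 for miR-486 and 0.34 for miR-16b.

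The miRNAs outside the clusters whose levels were most like those of the members were found by Pearson r of log2(RPM + 1) over the 8 libraries, among 120 miRNAs that reached 10 reads in each library (of 123 outside the clusters, 3 had values identical to another and were left out). The 8 libraries come from 4 cows and 2 sample types, which set much of each r, so the values only rank the miRNAs. MiR-103 came first for miR-23a (r = 0.942), miR-27a-3p (r = 0.905) and miR-23b-3p (r = 0.931). MiR-107, which is near-identical to miR-103, came second for miR-23a (r = 0.934) and miR-23b-3p (r = 0.922), and miR-125b for miR-27a-3p (r = 0.899). For miR-27b, miR-199a-3p and miR-199c came first with r = 0.929 each, and these 2 had nearly the same values in all libraries. For miR-24-3p, miR-361 (r = 0.986) and miR-26b (r = 0.980) came first. Both were also higher in sera, with a log2 FC of 1.29 and 1.07.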

How the data were processed

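In the work of the authors, poor reads were dropped (CASAVA 1.8), adaptors were cut, and reads over 15 nt were matched to the bovine miRNAs of miRBase release 21 with sRNAbench. The deposited values are RPM, one file per library. All libraries had nearly the same RPM sum, and 100% of values matched whole reads (within 0.05 RPM), so the reads were recovered. The sign-flip p-values of 0.125 reflect only that all 4 cows had the same sign, whatever the spread between them.

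The members, marker lists and ratios were chosen with earlier results of these data known. All members are named. The comparison of sera with exosomes was fitted across 365 miRNAs with limma 3.58.1 (trend, no cow block, pseudocount of 1 RPM, Benjamini-Hochberg FDR), since the values are RPM. EdgeR 4.0.16 (quasi-likelihood) and DESeq2 1.42.0 on the recovered reads were alternatives. Limma, edgeR and DESeq2 were also run on simulated data without a cow effect, and nothing is read from that run here. Ratios within libraries were tested over cows by exact sign-flip tests. The counting SD of a log2 ratio was approximated from the read numbers. For each member, the 2 most similar miRNAs were named by Pearson r. The log2 FC limits were 1 and -1.

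Sera and exosomes with the same number come from the same cow. Over 128 miRNAs, deviations from the mean of the sample type had r of 0.740 to 0.860 in the same cow and -0.501 to 0.195 in different cows. Other tools were Python 3.11.15, SciPy 1.17.1, pandas 2.3.3 and R 4.3.3. RefSeq (ARS-UCD2.0) gave gene order only, since the study mapped to another build.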

Additional observations from a re-analysis of the deposited data

Results flagged for a closer look

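In groups of 4 libraries, a value far from the others was looked for in 60 groups of members, ratios and totals. The search found 4, close to the share of about 5% of groups that chance gives. All 4 were libraries of cow 2. Its serum had the lowest miR-23a (4084 RPM against 5684 to 5962 in the others). Its exosomes had the lowest miR-23b-3p (756 RPM against 1777 to 1928). In the same exosome library the log2 ratio of miR-23b-3p to miR-27b was -4.77, against -4.09 to -4.02, and the log2 ratio of miR-451 to miR-23b-3p was 5.56, the highest. These values share the same libraries and members, so they are not independent of each other.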

How the results depend on the processing

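The members called higher in sera numbered 2 by limma, and 2 with the cow as a replicate block by both limma and edgeR, so the block changed no call of a member. Over all miRNAs it moved the calls from 11 higher in sera and 5 in exosomes to 29 and 6. The number was 1 with DESeq2 and 1 without both libraries of cow 1 (miR-23b-3p lost each time; for the latter its log2 FC rose to 1.29, with fewer libraries fitted), and 1 to 3 without 1 library at a time. DESeq2 moved miR-27b to 0.25. MiR-486 in place of miR-451 moved the ratio to miR-23a (sera minus exosomes) from -0.99 to -1.72. Without 1 library at a time the log2 FC stayed between 0.44 and 0.64 for miR-27b, 0.58 and 0.94 for miR-27a-3p, 0.77 and 1.12 for miR-23a, 0.95 and 1.40 for miR-23b-3p, and 1.98 and 2.49 for miR-24-3p. No log2 FC of the 5 members turned its direction under the alternatives run. The same held for the a-to-b ratios of miR-23 and miR-27 and for the difference of these ratios. It also held for the sera-exosome differences of miR-24-3p to the other members and of miR-451 to miR-23a. Other ratios named here were not run under alternatives. The median of the 128 miRNAs went from 0.31 to -0.02 with DESeq2. The calls went from 11 in sera and 5 in exosomes to 6 and 8 (TMM) and 3 and 13 (DESeq2). The alternatives were other pseudocounts, filters, tests, scalings, single sample types and left-out libraries. The depth limits miR-24-3p in exosomes, with 17 to 53 reads, and the 3 members with under 10 reads.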

Other observations

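The summed shares of other marker lists overlapped between sera and exosomes, but several differed in 1 direction within cows. The 2 endothelial miRNAs made up 1.07% to 1.83% of serum reads and 0.703% to 1.10% of exosome reads, with serum higher in 4 of 4 cows, and neither was called by limma. The 2 liver miRNAs (none called, median log2 FC of 1.11) held 3.15% to 5.75% and 2.21% to 5.72%, and serum was again higher in 4 of 4 cows. For erythroid miRNAs, exosomes had the larger share in 4 of 4 cows, with miR-486 alone at 15.9% and 26.8% on average. Of its 7 miRNAs, 2 were called higher in sera and none in exosomes, beside 3.01% of all miRNAs called higher in sera. Platelet and leukocyte miRNAs (6 of 6 with reads, none called) held 3.05% to 3.97% and 3.18% to 4.62%, with serum higher in 2 of 4 cows. By log2 FC, 4 of these 6 miRNAs were higher in serum and 2 in exosomes (median 0.25). Among them miR-223, abundant in myeloid cells and platelets, averaged 3338 ± 949 RPM in serum against 1848 ± 574 RPM in the exosomes (SD, n = 4). It was higher in serum in 4 of 4 cows, by 1.67 to 2.07 times, while the sample types overlapped. Of the 128 miRNAs that reached 10 reads in each library, 51.6% were likewise higher in serum in 4 of 4 cows. Of 4 muscle miRNAs in the fit, none was called, and the whole list had the larger share in exosomes in 3 of 4 cows.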
